A study of Drosophila melanogaster with 8 samples.

Results

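The γH2Av regions of the interior of chromosome arm 3R were described in cultured Drosophila S2 cells with and without RNAi against the linker histone dH1. Peaks from 4 γH2Av ChIP-seq libraries were merged wherever they shared at least 1 bp, and a merged region was a member when it lay on 3R and began between 2 and 25.9 Mb of the dm3 build. This gave 829 of the 4731 regions of the series, and 829 of the 984 regions on the whole arm (84.2%), the rest being 108 near the centromere and 47 near the telomere. The rule used position alone, so width, rank and calls were free to vary. The regions nearest the limits were called in similar ways on both sides of the centromere-proximal limit. The last region outside it, chr3R:1971564-1974146, and the first inside it, chr3R:2170594-2178204, were both called in 4 libraries. At the telomere-proximal limit, chr3R:25880951-25885851 (inside) was called in 4 libraries and chr3R:25959212-25961124 (outside) in 2.

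H2Av is the Drosophila histone H2A variant that fills the roles of both H2A.X and H2A.Z of mammals, and γH2Av is its form phosphorylated near the C terminus. Kinases of the DNA damage response place this mark on chromatin around breaks, where it can spread away from the lesion. The Jil1 kinase places it at promoters of active genes as well, so that a γH2Av peak on a gene-rich arm such as 3R does not by itself mark a break. The linker histone, of which Drosophila somatic cells have a single type named dH1, binds nucleosomes where the DNA enters and leaves and compacts chromatin.

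Cells of the 2 WT replicates were untreated, and cells of the 2 dH1 RNAi replicates received 100 µg of dsRNA against dH1 on days 1, 4 and 7 of an 8 day culture. No sample was given an unrelated dsRNA, so that dH1 depletion and exposure to dsRNA cannot be told apart. The replicates were independent biological ones by the study's methods, and each ChIP had its own input. S2 is 1 cell line, and the depletion itself cannot be read from peak positions.

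The 4 lists held 3761 and 3925 peaks in WT (replicates 1 and 2) and 3733 and 3037 in dH1 RNAi, and the reads behind them are unknown. WT replicate 1 stood apart in its peaks on the unplaced Uextra sequence, which numbered 329, against 64 to 92 in the other libraries. The X chromosome held 14.8% and 15.4% of the peaks in WT and 13.3% and 10.6% in dH1 RNAi. A score of −10 times the log10 of the caller's p-value came with each peak, and as it grows with read depth it was compared between libraries mainly as a rank within its list (rank 1 the highest score, percentile 100 the highest rank). The score itself entered only where a minimum of 100 is named and in 1 alternative fit on its log2 value. Tied scores shared a rank, as at the score of 3100, which several peaks of WT replicate 2 reached.

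The 829 regions covered 2.88 Mb, or 12.1% of the 23.9 Mb interior. Their width ran from 1020 to 14614 bp with a median of 2842 bp, and the middle of the distribution lay between 2160 and 4241 bp (quartiles). Most of them were therefore a few kilobases wide, and 134 (16.2%) reached 5 kb, the same percentage as the 16.2% over all regions of the series. The widest region was chr3R:4125363-4139976 (14614 bp), followed by chr3R:4545396-4559306 (13911 bp) and chr3R:4177559-4191332 (13774 bp). All 3 were called in the 4 libraries and all 3 lay within 500 kb of each other.

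Calls were shared by all libraries in most cases. Of the 829 regions, 507 (61.2%, 95% Wilson interval 57.8 to 64.4%) were called in all 4 libraries, against 49% of all regions of the series. Another 120 were called in 3 libraries, 82 in 2 and 120 in 1, the last being 14.5% of the members against 23.3% over the series. The share in all 4 libraries was 57.9% of 629 regions on the interior of 2L and 54.9% of 647 regions on the interior of 3L. These intervals and percentages cover counting error only, since neighbouring regions share libraries, and the differences between arms in these shares were not tested.

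**Figure D1:**
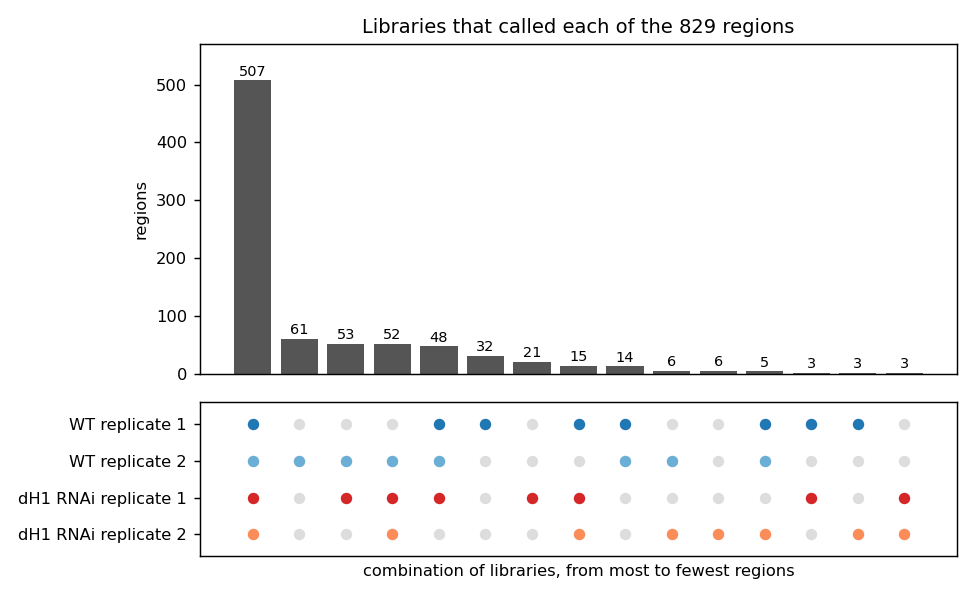
Number of the 829 regions (bars, vertical axis) called by each combination of libraries, with filled circles for the libraries that made the call. The 507 regions of all 4 libraries form the tallest bar, and the combination of both dH1 RNAi libraries alone is among the 3 smallest with 3 regions.

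Regions that only 1 library called had a low median rank. In the order WT replicates 1 and 2 and dH1 RNAi replicates 1 and 2, regions called in all 4 libraries had a median percentile of 65.9, 71.2, 69.4 and 62.3, and regions called in that library alone 17.1, 12.4, 14.1 and 6.85. Private regions thus had a low median in every library, but single ones ranked high, up to a percentile of 98.6 in WT replicate 1, 56.2 in WT replicate 2, and 73.2 and 20.6 in the dH1 RNAi replicates. Width followed the same order, with a median of 1985 bp for regions called in 1 library, 2166 bp in 2, 2637.5 bp in 3 and 3280 bp in 4, although a region merged from more peaks is wider by construction. Of the 134 regions of 5 kb or more, 103 (76.9%) were called in all 4 libraries, against 404 of the 695 narrower ones (58.1%). Within a library the best percentile in a region rose with the width of the widest peak there. Spearman coefficients over the regions it called on the arm were 0.584, 0.668, 0.715 and 0.688, as a description of regions that share a library.

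**Figure D2:**
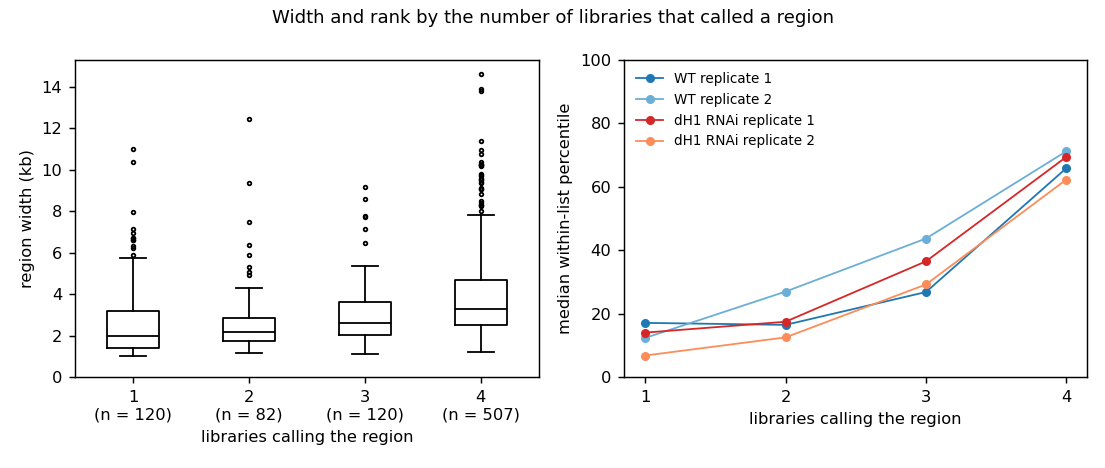
Left, width of the regions in kb by the number of libraries calling them (box, quartiles with the median; whiskers, 1.5 interquartile ranges; points, regions beyond). Right, median within-list percentile of the regions in each library against the number of libraries calling them, with 62.3 to 71.2 for regions of all 4 libraries and 6.85 to 17.1 for regions of 1 library.

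Few regions were called in 1 condition alone. Only 3 regions (0.362%, against 1.06% over the series) were called in both dH1 RNAi replicates and in neither WT replicate, and 14 (1.69%, against 3.64%) in both WT replicates and in neither dH1 RNAi replicate. Both shares were below those of the whole series, an order that turned for dH1 RNAi when WT replicate 2 was left out. The 574 regions called in both WT replicates and the 577 called in both dH1 RNAi replicates had 507 in common, which was 88.3% (Wilson, 85.4 to 90.7%) of the first and 87.9% (85.0 to 90.3%) of the second. Over the series these shares were 79.9% and 87.0%, so that the arm differed from the series in the WT share and hardly in the dH1 RNAi share, neither of which was tested. Calls that no other library made were most frequent in WT replicate 2 with 61 regions, followed by 32 in WT replicate 1, and the dH1 RNAi libraries (replicates 1 and 2) had 21 and 6. On the arm these were 7.36%, 3.86%, 2.53% and 0.724% of regions, and over the series 8.41%, 11.0%, 2.75% and 1.12%, where WT replicate 1 had the most. With 1 library left out, the rule for a region of 1 condition needed fewer calls. The regions of dH1 RNAi then numbered 18 without WT replicate 1 and 59 without WT replicate 2, and leaving out dH1 RNAi replicate 1 or 2 gave 11 or 27. These were 2.22%, 7.49%, 1.34% and 3.24% of the regions left on the arm, against 3.26%, 6.10%, 2.43% and 3.97% over the series. Those of WT numbered 77, 47, 63 and 19 in the same order, or 9.52%, 5.96%, 7.68% and 2.28%, against 13.7%, 16.0%, 12% and 4.29% over the series. Both counts thus rested on the requirement of 2 calls and 2 missing calls.

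The 3 regions of dH1 RNAi alone ranked low. The region chr3R:16981648-16983768 (2121 bp) ranked 2651 of 3733 and 1739 of 3037 peaks, and chr3R:6057816-6060899 (3084 bp) ranked 3415 and 2593. The region chr3R:4468373-4473322 (4950 bp) ranked 2876 and 2956 and lay 609 bp from the next region. Only 1 of the 3 had a score of at least 100 in both libraries. Lists of the same length left 2 of the 3 in this class, as did joining peaks over gaps of 1000 bp.

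The 14 regions of WT alone were 1234 to 12459 bp wide, with a median of 2105 bp. Of these, 6 lay within 1 kb of another region and 4 had a score of at least 100 in both libraries. The highest placed, chr3R:22700191-22705489 (5299 bp), ranked 1191 of 3761 and 785 of 3925 and lay 743 bp from its neighbour. The next were chr3R:13542224-13545842 with ranks of 2500 and 2553, chr3R:20683488-20686108 with 2401 and 2829, chr3R:17201925-17204443 with 2626 and 2926, and chr3R:25051592-25056654 with 3232 and 1507. All but the first ranked in the lower part of at least 1 list. The widest of the 14, chr3R:18403500-18415958 (12459 bp), was chosen after its values were seen and ranked 3268 and 711 in WT, so that the WT replicates placed it far apart.

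On average, replicates of a condition did not overlap each other more than they overlapped the other condition. The WT pair overlapped less than every pair between conditions, and the dH1 RNAi pair more than all but the highest of them. WT replicates 1 and 2 shared 84.6% of their peaks on the arm (mean of both directions, at least 1 bp) and the dH1 RNAi replicates 89.4%. Between conditions the share was 86.5% and 86.3% for WT replicate 1 with dH1 RNAi replicates 1 and 2, and 91.1% and 86.2% for WT replicate 2. The highest overlap of any pair was thus between a WT and a dH1 RNAi library. The mean within conditions was 87.0% and between conditions 87.5%, a difference of −0.548 points (exact test over the 3 ways to form pairs, p = 0.667). With a WT library left out, only the dH1 RNAi pair remained within conditions. The difference was then 0.789 points without WT replicate 1 and 2.97 points without WT replicate 2. With a dH1 RNAi library left out, only the WT pair remained, and the difference was −1.70 and −4.25 points without replicates 1 and 2. These values rest on different pairs, so that they do not show whether the sign depends on a library.

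Peaks were counted per library to ask whether dH1 depletion changed the amount of γH2Av called on the arm. The interior held 655 and 785 peaks in WT and 762 and 654 in dH1 RNAi. Both conditions spanned the same range and the replicates of each differed by over 100 peaks. WT averaged 720 ± 91.9 peaks and dH1 RNAi 708 ± 76.4 (SD, n = 2), with a difference of −12 peaks (exact permutation test, two-sided p = 0.667, Benjamini-Hochberg adjusted 0.667 over 5 tests). The smallest p such a test can give here is 0.33, so none of the 5 tests could pass 0.05. The sign of the difference was the opposite without WT replicate 2 (53 peaks) and without dH1 RNAi replicate 2 (42 peaks). Covered length was 2.09 and 2.47 Mb in WT and 2.28 and 1.88 Mb in dH1 RNAi, again with overlapping groups. Its means were 2.28 ± 0.267 and 2.08 ± 0.285 Mb (SD, n = 2), a difference of −0.199 Mb (exact permutation p = 0.667), which was −0.388 and −0.00958 Mb without WT replicates 1 and 2, and −0.400 and 0.00286 Mb without dH1 RNAi replicates 1 and 2.

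As a share of its list, the arm was somewhat higher in dH1 RNAi. The interior of 3R held 17.4% (16.2 to 18.7%) and 20% (18.8 to 21.3%) of the peaks in WT, and 20.4% (19.2 to 21.7%) and 21.5% (20.1 to 23.0%) in dH1 RNAi (95% Wilson intervals). The groups did not overlap, but WT replicate 2 and dH1 RNAi replicate 1 differed by less than their counting error. The means were 18.7 ± 1.83% and 21.0 ± 0.793% (SD, n = 2), a difference of 2.27 points (exact permutation test, two-sided p = 0.33, adjusted 0.556). The share of the X chromosome, given above, was lower in both dH1 RNAi libraries than in both WT libraries. Uextra held 8.75% and 1.63% of the list in WT and 2.46% and 2.14% in dH1 RNAi, so that WT replicate 1 alone stood apart there. The difference in the share on 3R was 0.973 points without WT replicate 1 and 3.56 points without WT replicate 2. Among the peaks of the large autosome arms alone (2L, 2R, 3L and 3R), a measure added after seeing the data, the interior of 3R held 24.2% and 25% in WT and 25.1% and 25.6% in dH1 RNAi. The difference was then 0.799 points (24.6 ± 0.551% against 25.4 ± 0.370%, SD, n = 2, exact permutation p = 0.33), so that most of the difference in the share of the list was not seen among autosome arms.

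Peaks were narrower in both dH1 RNAi libraries, on 3R as on the arms most like it. Median peak width was 2659 and 2680 bp in WT and 2543.5 and 2453.5 bp in dH1 RNAi. The groups did not overlap, and the WT replicates differed less from each other than the dH1 RNAi replicates did. The means were 2669.5 ± 14.8 and 2498.5 ± 63.6 bp (SD, n = 2), a difference of −171 bp (exact permutation test, two-sided p = 0.33, adjusted 0.556), which was −258.75 bp with lists of equal size. On 2L the medians were 2524.5 and 2485 bp in WT and 2378 and 2387 bp in dH1 RNAi, and on 3L 2482.5 and 2384 bp against 2346 and 2347.5 bp, so that the narrower peaks of dH1 RNAi were not particular to 3R. Median within-list percentile was 57.7 and 58.5 in WT and 57.3 and 54.7 in dH1 RNAi, with means of 58.1 ± 0.510 and 56.0 ± 1.84 (SD, n = 2) and a difference of −2.06 (exact permutation p = 0.33, adjusted 0.556). WT replicate 1 and dH1 RNAi replicate 1 were close in this measure, and the difference was −0.758 without dH1 RNAi replicate 2, the shortest list, and −3.36 without dH1 RNAi replicate 1.

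**Figure D3:**
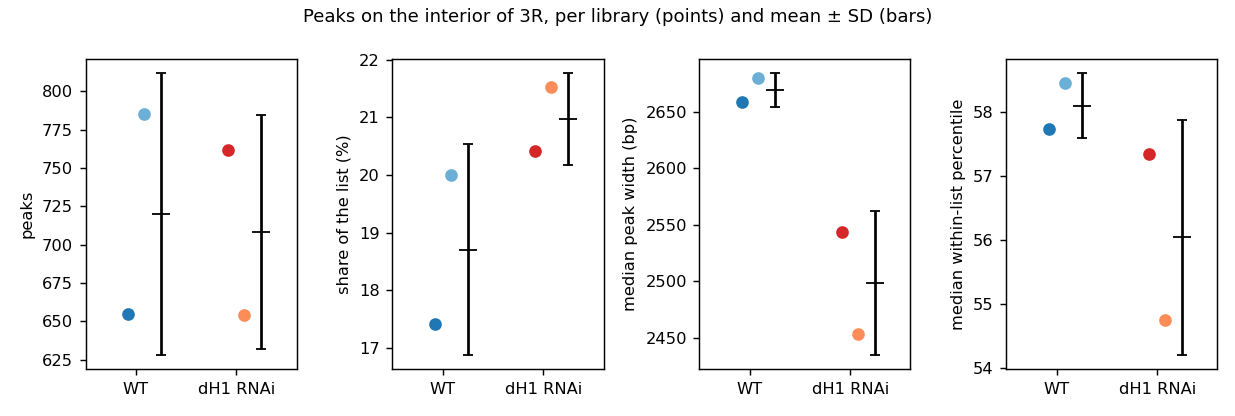
Number of peaks, share of the list in percent, median peak width in bp and median within-list percentile on the interior of 3R. Points are the libraries (replicate 1 at the left of each pair), and bars give the mean and SD of each condition (n = 2); the vertical axes do not start at 0. Only the number of peaks overlaps between conditions, with 655 and 785 in WT and 762 and 654 in dH1 RNAi.

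The width was compared further over regions in which every library called exactly 1 peak, which removes differences in which regions were called. These were 430 of the 507 shared regions. Their median peak widths were 2610 and 2801 bp in WT and 2588.5 and 2453.5 bp in dH1 RNAi, a difference of −184.5 bp between the means (exact permutation test, two-sided p = 0.33, the smallest possible). WT replicate 1 and dH1 RNAi replicate 1 were here nearly equal, and the WT replicates differed more than they did over all peaks. Of the 430 regions, 58.8% and 74.0% had a narrower peak in dH1 RNAi replicates 1 and 2 than in WT replicate 1, and 71.2% and 81.6% than in WT replicate 2. The peak was narrower in WT replicate 2 than in WT replicate 1 in 33.7% of regions, and narrower in dH1 RNAi replicate 2 than in dH1 RNAi replicate 1 in 69.3%. The share between the dH1 RNAi replicates thus lay within the range of those between conditions. By size the WT replicates differed as much too. The median log2 ratio of widths was 0.0317 for WT replicate 2 over WT replicate 1 and −0.0458 for dH1 RNAi replicate 2 over dH1 RNAi replicate 1. For dH1 RNAi over WT it ran from −0.0213 to −0.113.

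The place of a shared peak moved little. Over the 430 regions the centres of 2 libraries lay a median of 56.75 to 75.5 bp apart in the 6 pairs of libraries, with 63 bp within WT and 62 bp within dH1 RNAi. For 1 region in 10 the shift was over 328 to 434.5 bp, depending on the pair. Compared with a median width of over 2400 bp in every library, peaks of the same region thus lay almost on top of each other in all pairs. Splitting of a region into several peaks was seen in 27 and 38 regions in WT and in 58 and 51 regions in dH1 RNAi, with at most 3 peaks in a region. Both dH1 RNAi libraries had more split regions than both WT libraries, which was not tested. Split regions were not counted on other arms or over the series, so that this was not shown to be particular to 3R. Over the series 3761 and 3925 peaks lay in 3615 and 3787 regions in WT, and 3733 and 3037 in 3511 and 2798 in dH1 RNAi. There too peaks outnumbered regions by more in both dH1 RNAi libraries.

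Regions were spread along the whole arm but at uneven density. In 1 Mb bins from 2 Mb on, the last of 0.9 Mb, the number of regions ran from 18 to 62 with a median of 36.5, and its coefficient of variation over the 24 bins was 32.5%. The same measure was 48.3% on the interior of 2L and 39.6% on that of 3L, so that 3R had the lowest value, as a description without a test. The last bin of 3L was well short of 1 Mb and its count was not scaled. X had 48.8% but was binned over its whole length, ends included, and is not directly comparable. The fullest bin lay at 20 to 21 Mb with 62 regions and held 44 and 58 peaks in WT and 50 and 48 in dH1 RNAi. The next were the bin at 5 to 6 Mb with 50 regions (46 and 51 peaks in WT, 60 and 54 in dH1 RNAi) and the bin at 4 to 5 Mb with 47 regions (43 and 43 in WT, 47 and 37 in dH1 RNAi). The bin at 4 to 5 Mb had fewer regions than the fullest bin but regions over 22.8% of its length. The emptiest bins were 15 to 16 Mb with 18 regions, 13 to 14 Mb with 19 and 10 to 11 Mb with 21. They held 16 to 21, 14 to 20 and 18 to 22 peaks per library, so that they were sparse in every library.

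**Figure D4:**
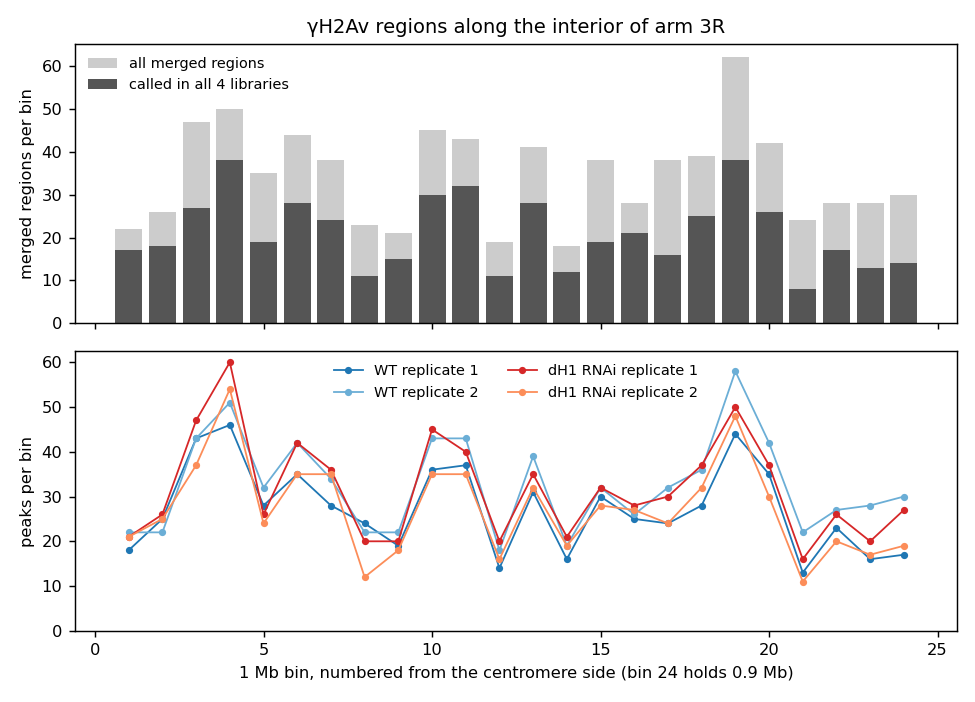
Top, merged regions per 1 Mb bin (light bars) and those called in all 4 libraries (dark bars), with bins numbered from the centromere side. Bottom, peaks per bin in each library (lines). Counts run from 18 to 62 regions, and the 4 lines rise and fall together, with Pearson coefficients of 0.903 to 0.968 between libraries over the 24 bins.

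The profile along the arm was shared by the libraries. Pearson coefficients between the libraries' counts per bin were 0.903 to 0.968 over the 24 bins, as a description of bins from the same chromosome. Both dH1 RNAi libraries lay above both WT libraries in 3 bins (at 5 to 6, 8 to 9 and 17 to 18 Mb), against 5.75% of the bins of 3R, 2L, 3L and X together, and both WT libraries lay above in 2 bins (6 to 7 and 9 to 10 Mb), against 29.9%. Scaled to 1000 peaks of the list, dH1 RNAi was above in 12 bins and WT in 1, against 25.3% and 23% of all bins. Scaled to 1000 peaks of the large autosome arms, which was added after seeing the data, the counts were 7 and 3, against 11.5% and 37.9%. The number of bins above in dH1 RNAi thus depended on the scale. In each scale, by share, more of the 24 bins of 3R than of all arms together were above in dH1 RNAi and fewer were above in WT. The bins of all arms include those of 3R and those of X, which was binned over its whole length. By counts, both WT libraries lay above in 13 of 23 bins of X, 5 of 19 of 2L and 6 of 21 of 3L. Both dH1 RNAi libraries lay above in 0, 1 and 1 of these bins. Against 2L and against 3L alone the order of the shares was the same in each scale. None of these shares was tested.

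The share of regions called in all 4 libraries varied along the arm, which was not tested. From the centromere side on, the 3 segments of 8 bins held 285, 253 and 291 regions (34.4%, 30.5% and 35.1%), of which 63.9%, 66.4% and 54.0% were called in all 4 libraries. By bin this share ran from 77.3% (17 of 22 regions at 2 to 3 Mb) to 33.3% (8 of 24 regions at 22 to 23 Mb). The most telomere-proximal segment held 30.5%, 35.0%, 31.9% and 30.7% of the libraries' peaks on the arm. WT replicate 2 had the highest of these shares, and the regions that it alone called numbered 11, 17 and 33 by segment. In the other libraries the private regions showed no such increase, with 10, 12 and 10 in WT replicate 1, 7, 5 and 9 in the first dH1 RNAi replicate and 2 in each segment in the other. The part of WT replicate 2 in the share of the last segment was not tested.

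Neighbouring regions lay close together. The 828 gaps between them had a median of 5183.5 bp and a mean of 25160 bp, from 18 bp upward, and 515 of them were at most 10 kb and 141 at most 1 kb. Joined over gaps of up to 10 kb, 694 regions (83.7%) formed 179 clusters with a median span of 17483 bp, and 135 regions stood alone. With 5 kb there were 200 clusters and with 20 kb 150. Clusters of at least 5 regions numbered 52. Standing in a cluster went with little difference in calls, as 61.5% (57.9 to 65.1%, Wilson) of clustered regions and 59.3% (50.8 to 67.2%) of lone regions were called in all 4 libraries.

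The clusters with the most regions differed in how fully they were shared. The cluster at chr3R:11020700-11117091 (96392 bp) held 14 regions, 10 of them in all 4 libraries, and 11 and 13 peaks in WT against 16 and 10 in dH1 RNAi, and regions covered 63.1% of it. The cluster at chr3R:20610733-20703784 (93052 bp) also held 14 regions, but only 6 of them in all 4 libraries. Its peaks numbered 8 and 14 in WT and 9 and 7 in dH1 RNAi and it was covered to 42.2%, with the most peaks in WT replicate 2. The cluster at chr3R:5550044-5636032 (85989 bp) held 12 regions, 11 of them in all 4 libraries. It had 12 and 12 peaks in WT and 15 and 13 in dH1 RNAi, and with 69.7% it was the most fully covered of the 3.

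Long empty stretches took up much of the arm. Gaps of over 100 kb numbered 63 and summed to 11.3 Mb, which was 47.4% of the interior. The corresponding share was 50.5% on 2L (51 gaps) and 47.2% on 3L (54 gaps), and the median gaps there were 4177 and 5558 bp. The longest gap, chr3R:2487683-2891463 (403.781 kb), was empty in every library, and measured within each library it was 403.8, 404.0, 404.1 and 404.2 kb long. The gap at chr3R:19111501-19504747 (393.2 kb) was 410.5 and 393.9 kb long in WT and 393.5 and 407.4 kb in dH1 RNAi. The gap at chr3R:23784861-24160102 (375.2 kb) was 375.3 kb in WT replicate 2 and dH1 RNAi replicate 1 but 584.8 and 584.9 kb in the others, since only 2 libraries called the region at its end. What genes these stretches hold was not analysed here.

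The 3R interior was set against the interiors of 2L (2 to 21 Mb) and 3L (2 to 22.5 Mb), the arms most like it, with each library as its own pair. In 4 libraries an exact sign-flip test cannot go below p = 0.13, and 8 such tests were made, for which p = 0.13 was adjusted to 0.167. Peaks on 3R numbered 27.4, 32.8, 31.9 and 27.4 per Mb, those on 2L 27.8, 30.2, 28.8 and 23.8, and those on 3L 25.3, 29.6, 27.0 and 21.9. Density was higher on 3R than on 3L in 4 of 4 libraries by 3.94 peaks per Mb on average (exact sign-flip p = 0.13) and higher than on 2L in 3 of 4 by 2.24 (exact sign-flip p = 0.25, adjusted 0.286). Median peak width was larger on 3R in 4 of 4 libraries, by 140 bp against 2L and 194 bp against 3L on average (exact sign-flip p = 0.13 each). The difference from 2L was 63.4 bp among peaks scoring at least 100 and 55.6 bp in lists cut to the same length, and that from 3L was 127 bp among peaks scoring at least 100. The upper quartile of width was instead larger on 2L than on 3R in WT replicate 2 (3662 against 3659 bp) and dH1 RNAi replicate 2 (3452.25 against 3335.75 bp). In the replicates numbered 1 it was larger on 3R than on 2L, and against 3L in every library. Regions of 5 kb or more were 18.1% on 2L, 15.6% on 3L and 16.2% on 3R. Median within-list percentile was also higher on 3R in 4 of 4 libraries, by 3.95 percentile points against 2L and 7.5 against 3L (exact sign-flip p = 0.13 each). The share of peaks on 3R with a neighbour in the same library within 10 kb was 74.5%, 84.8%, 84.0% and 77.4%. This share was lower than on 2L in 4 of 4 libraries, with a mean difference of −1.92 points (exact sign-flip p = 0.13) that was −1.19 points without WT replicate 1. Against 3L it was lower in 3 of 4 libraries, with a mean difference of −0.439 points (exact sign-flip p = 0.625) that was 0.385 points without WT replicate 1. None of the 8 passed 0.05.

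Regions were named by the rank in the library that placed them lowest, a choice that fixes a high rank in all 4. By this rule the first was chr3R:11657147-11666552 (9406 bp), with ranks of 38 and 8 in WT and 14 and 35 in dH1 RNAi. The next, chr3R:11191126-11199123 (7998 bp), ranked 42 and 8 in WT and 11 and 15 in dH1 RNAi. It was followed by chr3R:21502381-21507906 (ranks 77, 8, 15 and 16, in the same order), chr3R:7450476-7455299 (53, 113, 20 and 39) and chr3R:19587943-19594541 (92, 8, 116 and 75). The rule set their place among the top 116 peaks of each list, and the first pair lay within 500 kb of each other. High regions of a single library need not be high elsewhere. The region chr3R:8226366-8235513, chosen after its values were seen, had within-list percentiles of 99.5, 99.9 and 99.6 in WT replicate 2 and the dH1 RNAi replicates but was not called in WT replicate 1. The region chr3R:2914124-2924330, chosen likewise, stood at 99.7 and 35.3 in WT and 70.2 and 99.9 in dH1 RNAi. Among the top 100 peaks of a list, the interior of 3R held 16 and 29 in WT and 19 and 21 in dH1 RNAi. Of all peaks it held 17.4% and 20% in WT and 20.4% and 21.5% in dH1 RNAi. Only the count of 29 was thus far from the share of its list.

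For a test by region, the regions of all 4 libraries in the whole series (2320, of which 507 on the 3R interior) were ranked by score in each library and the normal scores of the ranks were fitted with limma, adjusted over all 2320. No region passed an adjusted p of 0.05 on the arm or in the series, and the smallest limma adjusted p was 0.979. At an unadjusted limma p under 0.05 there were 17 of 507 regions (3.35%, 13 higher and 4 lower in dH1 RNAi), against 4.05% over the series. A fit on the log2 score also gave 0 calls and 17 regions at an unadjusted p under 0.05. The count of 17 was 62 without WT replicate 1 and 69 without WT replicate 2, it was 10 or 5 when dH1 RNAi replicate 1 or 2 was left out, and each of these fits gave 0 adjusted calls. As shares these were 12.2%, 13.6%, 1.97% and 0.986%, against 14.1%, 13.2%, 2.5% and 1.21% over the series, so that the arm stayed near the series. The counts were highest with a WT library left out. Such a fit takes its residual spread only from the condition that keeps both replicates. The counts with a library left out therefore cannot show what a single library adds or hides. How far the residual spread set them was not tested.

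More shared regions of the arm ranked higher than lower in dH1 RNAi by mean normal score, but the library medians overlapped between conditions. The median percentile among shared regions was 50.9 and 56.1 in WT and 55.3 and 55.5 in dH1 RNAi. WT replicate 1 alone was low, and WT replicate 2 was above both dH1 RNAi libraries. Over all peaks of the arm the mean of the median within-list percentile was instead lower in dH1 RNAi (56.0 against 58.1). The median difference of the normal scores was 0.0787 on the arm and −0.00245 over the series, and 294 of the 507 regions (58.0%) had a positive difference, against 49.7% over the series. In 84 regions (16.6%, against 14%) both dH1 RNAi libraries ranked above both WT libraries, and in 64 (12.6%, against 18.6%) below. No chance test was made of these shares, as all regions come from the same libraries.

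Ranks of the shared regions were most alike between the dH1 RNAi replicates and least alike between the WT replicates. The Spearman coefficient over 507 regions was 0.825 between the dH1 RNAi replicates and 0.540 between the WT replicates. Between conditions it was 0.724 and 0.718 for WT replicate 1 and 0.758 and 0.653 for WT replicate 2, each with dH1 RNAi replicates 1 and 2. The median shift in percentile was 17.0 points between the WT replicates, 8.54 between the dH1 RNAi replicates and 10.2 to 14.6 between conditions. The spread between WT replicates was therefore larger than any spread between conditions.

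**Figure D5:**
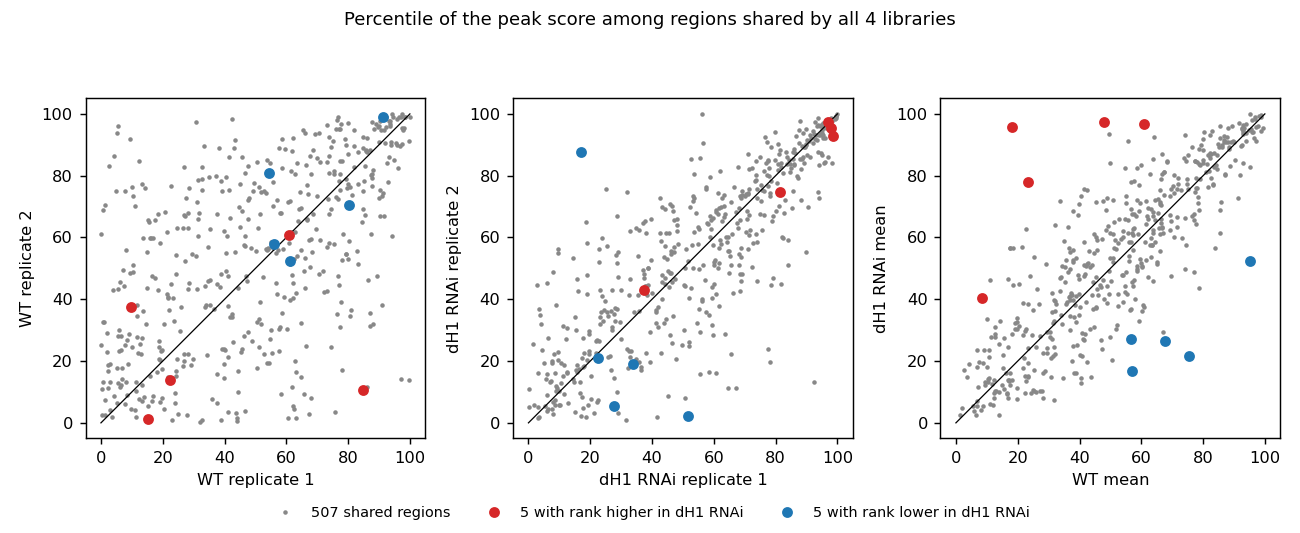
Percentile of the score among shared regions for the 507 regions of the arm (points), between WT replicates (left), between dH1 RNAi replicates (middle) and between the condition means (right), with the line of equal percentile. The WT replicates scatter most (Spearman coefficient 0.540) and the dH1 RNAi replicates least (0.825); coloured points are the 5 regions with the largest rise and the 5 with the largest fall among those whose groups did not overlap.

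The largest rise was in chr3R:4161227-4171476 (10250 bp). Its ranks were 2226 and 2544 in WT and 39 and 173 in dH1 RNAi, which were percentiles of 22.4, 13.8, 98.4 and 93.0 among shared regions. It was low in both WT and near the top in both dH1 RNAi libraries, and its single peak was 10166 and 10189 bp wide in WT and 7802 and 8004 bp in dH1 RNAi. The difference of normal scores was 2.73 ± 0.410 (SE), and the limma adjusted p was 0.979. The other 4 rises were in chr3R:4545396-4559306 (374 and 2684 in WT, 73 and 64 in dH1 RNAi, difference 2.03), chr3R:4569300-4574929 (2906 and 1660, 473 and 630, 1.59), chr3R:7055337-7064885 (1013 and 997, 51 and 118, 1.58) and chr3R:16872095-16877126 (2572 and 3596, 1640 and 1481, 1.37). In chr3R:4545396-4559306 the first WT replicate ranked nearer to the dH1 RNAi libraries than to the other WT replicate, and the difference of 2.03 was 0.895 without WT replicate 2 and 3.16 without WT replicate 1. That of chr3R:16872095-16877126 was 0.778 without WT replicate 2.

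The largest falls were smaller than the largest rises. The first was chr3R:20742606-20752985 with ranks of 214 and 8 in WT and 2294 and 298 in dH1 RNAi (difference −1.76), where dH1 RNAi replicate 2 was close to WT replicate 1. In chr3R:15466075-15471561 the ranks were 493 and 741 in WT and 2086 and 2146 in dH1 RNAi, and the difference was −1.48 ± 0.362 (SE). Here replicates of each condition were close. The others were chr3R:2281328-2283839 (1147 and 1087, 1934 and 2739, −1.26), chr3R:17485236-17490417 (1006 and 1234, 1238 and 2893, −1.14) and chr3R:16381750-16384898 (1192 and 471, 1745 and 2201, −1.14). Several falls rested on 1 library. Without dH1 RNAi replicate 1 the difference of chr3R:20742606-20752985 was −0.701, and without dH1 RNAi replicate 2 it was −2.82. Without dH1 RNAi replicate 2 those of chr3R:17485236-17490417 and chr3R:2281328-2283839 were −0.127 and −0.762. Leaving out the other dH1 RNAi replicate gave −2.16 for the first of them, and leaving out WT replicate 2 gave −0.754 for chr3R:16381750-16384898. The limma adjusted p was 0.979 for each of these 10 regions. In 6 of the 10 the number of peaks making up the region differed between libraries. The region chr3R:7055337-7064885, for example, was a single peak in both WT libraries and was split in both dH1 RNAi libraries. Over the 65 shared regions that were 1 peak in some libraries and several in others, the percentile in the libraries with several peaks minus that in the others had a median of −3.38 points, and it was positive in 26 regions and negative in 39.

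Many of these extremes fell in a single stretch between 4.1 and 4.6 Mb, which was chosen after its values were seen. It held 20 regions, 13 of them in all 4 libraries and 8 of at least 5 kb, and they covered 24.5% of it, against 12.1% of the interior. Peaks numbered 21 and 21 in WT and 24 and 20 in dH1 RNAi, so that their number hardly differed. The stretch held the 3 widest regions of the arm, 3 of the 5 largest rises in rank and 1 of the 3 regions of dH1 RNAi alone. Of its 13 shared regions, 4 ranked higher in both dH1 RNAi libraries than in both WT libraries, 2 ranked lower and 7 overlapped between conditions, where 14% of shared regions of the series ranked higher and 18.6% lower, and 10 had a positive difference. The median percentile of the 13 was 38.9 and 37.4 in WT and 80.3 and 74.6 in dH1 RNAi. As the stretch was picked for these values, they are given with no test. Whether it holds repeats, or a rearrangement or altered copy number in S2 cells, was not tested, and any of these would change what a width or a rank there means.

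The widest region of the arm lay in the same stretch and showed how far single libraries could stand apart. For chr3R:4125363-4139976 the ranks were 3217 and 93 in WT and 1797 and 633 in dH1 RNAi, so that both extremes were WT libraries. The other wide neighbour, chr3R:4177559-4191332, ranked 248 and 220 in WT and 290 and 442 in dH1 RNAi and was close in all 4.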

How the data were processed

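γH2Av ChIP and input samples came from WT and dH1 RNAi S2 cells, 2 replicates each (8 samples). The authors had aligned reads to dm3 with Bowtie 0.12.5 (up to 2 seed mismatches, every site kept up to 10000, so that repeats share reads), removed duplicates with sambamba 0.5.1 and called peaks with MACS 1.4 at p under 1e-05 in each ChIP against its own input, without pooling. The deposited score of a peak was −10 times the log10 of the caller's p-value, and the lowest was 50.01. Further copies of the 4 lists, identical to them, were left out. Depth in reads is unknown, and 3037 to 3925 peaks per list set the precision of shares.

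Peaks sharing at least 1 bp were merged, and groups were taken from the sample titles. Library values were compared by exact permutation over the 6 labelings, arms by exact sign-flip over the 4 libraries, and ranks with limma 3.58.1 in R 4.3.3. Other steps used Python 3.11.15, numpy 2.4.6, scipy 1.17.1 and matplotlib 3.10.9. The procedure was run on simulated lists with planted changes. The simulated replicates were more alike than the real ones, so that this run does not show how well changes would be found in these data. Regions were named by a rule: the 5 shared regions and up to 5 of each condition with the smallest worst rank, the 5 largest rises and falls in rank without overlap of groups, the 3 widest regions, the 3 largest clusters, the 3 longest gaps and the 3 fullest and emptiest bins. Members, lists and tests were chosen with earlier results of these data known.

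Each library was left out in turn, and other settings were a score of at least 100, lists cut to 3037 peaks, a block for the replicate number, the whole arm, overlap of 50%, merging over 1000 bp, calls in 1 replicate, log2 scores, and other bins and cluster distances. Genes and sequence of the regions were not analysed here, since the annotation given was not of dm3.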

Additional observations from a re-analysis of the deposited data

How the results depend on the processing

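The difference in the number of peaks was 57 with lists of equal size and −77 to 53 with 1 library left out. That in covered length was −0.400 to 0.00286 Mb with 1 library left out, and the difference of overlaps within and between conditions −4.25 to 2.97 points. Regions of dH1 RNAi alone numbered 8 with lists of equal size, 5 with an overlap of 50%, 30 with a call in 1 replicate (1.10%, 0.590% and 3.62% of regions, against 2.10%, 1.11% and 4.92% over the series) and 11 to 59 with 1 library left out. Those of WT alone numbered 5 with equal lists, 107 with a call in 1 replicate (0.686% and 12.9%, against 2.52% and 23.0%) and 19 to 77 with 1 library left out. The share in clusters minus that on 3L was 1.06 points with a minimum score of 100, 0.453 with equal lists, 0.858 with a cluster distance of 5 kb, 0.0146 with 20 kb and −1.45 to 0.385 with 1 library left out. The variation along the arm was 44.3% in bins of 500 kb and 24.9% in bins of 2 Mb. The cause of these changes was not tested, apart from fewer calls being required with a library left out or 1 replicate enough. With a library left out, the overlap within conditions also rested on the pair of the other condition alone. The other 119 values of main results kept their direction or, for counts, stayed within 1.5 times, but their size could move: the difference in share of the list ran from 0.973 to 3.56 points with 1 library left out. The signs of the 10 regions named for their rank were set by how they were chosen, and their differences moved by over 1.5 times where a library is named beside them.

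With the replicate number as a block the mean differences were −12 peaks, 2.27 points of share, −0.199 Mb, −171 bp and −2.06 percentile points, as without it. The pairs differed by 107 and −131 peaks, by 3.00 and 1.53 points, by 0.192 and −0.589 Mb, by −115.5 and −226.5 bp and by −0.397 and −3.72 percentile points, and an exact test over 2 pairs cannot go below p = 0.5. The block gave 0 limma calls and 15 of 507 regions at an unadjusted p under 0.05. Deviations of libraries of the same number had a correlation of −0.197 on the arm, and the crossed block, added after seeing the data, gave 0 calls and 23 regions. The labels state no shared batch.

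Peak lists hold no reads, so that a call and a missing call are not compared by their enrichment, scores rise with depth, and 2 libraries against 2 cannot pass 0.05 by permutation.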
